A study of Mus musculus with 2 samples.

Results

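The windows described here are the distal subtelomeric windows of the mouse autosomes, meaning those nearest to the chromosome end that lies away from the centromere. On each of chromosomes 1 to 19 they are the listed 100 bp windows whose start lies within 1 Mb before the highest listed start of that chromosome. They number 13566 of 2537435 listed windows, or 0.551% of the 2460832 autosomal ones, and between 281 (chromosome 3) and 1671 (chromosome 4) per chromosome, with a median of 548. The last listed window is a landmark of the table and is not the telomere itself.

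Methylated DNA was captured from sheared testis DNA of C57BL/6 mice with the methyl-CpG binding domain of MBD2 and sequenced. The study has 1 wildtype library and 1 library of the genotype Kaiso KO, whose phenotype label reads generation 3 offspring and male sterile. The description of the knockout sample calls the testis wildtype while naming knockout mice, so every knockout value rests on the genotype label. Ages and the deleted part of the allele are not stated. With 1 library per genotype there is no replicate check and no test between genotypes, and all intervals are 95% intervals that cover counting error only.

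Kaiso, the product of Zbtb33 on chromosome X, is a zinc finger protein that binds methylated CpGs and also an unmethylated sequence known as the Kaiso binding site. Mouse autosomes have their centromere close to one end, so the distal end closes the long arm. Subtelomeric DNA next to that end is known for repeats shared between chromosomes and for frequent crossing over in male meiosis. Capture by MBD2 grows with the number of methylated CpGs in a fragment, so a count reads methylation and CpG density together, and in whole testis a change within cells cannot be told apart from a change in the mix of cells.

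Sequencing depth was 87710791 reads for the wildtype and 98549116 reads for the knockout library. The table lists only windows whose unadjusted p-value was below 0.05, so unlisted windows may hold differences as well, and ratios of listed ones are pushed away from 1. Zbtb33 (chromosome X, 38189793 to 38197046) had 303 wildtype and 83 knockout counts over its 16 listed windows, of which 15 were lower in the knockout library. Ratios below are knockout over wildtype per library read, on the log2 scale, and other scalings would move them all alike: the deposited scaling of the authors by 0.13, TMM by -0.16, autosomal counts by -0.27, and a median of 0 in windows of 5 or more CpGs by -0.66.

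Sequences of promoters and microRNAs in the distal stretches are given first. Promoters are the RefSeq sequences of GRCm38.p6 (the mm10 assembly), from 250 bases before to 50 after a gene start, printed 5′ to 3′ on the gene's strand with CpGs in capitals. Those of Ptchd3, Gtsf1 and Ccdc7b were chosen after it was seen that they overlap listed windows. Among the 12 higher and 12 lower gene ends named below, the only other known promoter that does so is that of Ppp2r3d. Most of the differences named below thus lie outside the promoters. The promoters of Zfp385a and Cbx5 belong to the gene ends farthest from 0 in each direction.
Ptchd3, chr11:121829968-121830267, plus strand: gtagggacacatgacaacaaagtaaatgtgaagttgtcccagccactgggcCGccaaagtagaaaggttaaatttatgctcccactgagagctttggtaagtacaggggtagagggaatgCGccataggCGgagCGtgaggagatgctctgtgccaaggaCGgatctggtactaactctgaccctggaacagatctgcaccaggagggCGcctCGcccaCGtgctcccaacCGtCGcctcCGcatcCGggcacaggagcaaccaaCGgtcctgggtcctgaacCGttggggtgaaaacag
Gtsf1, chr15:103430378-103430677, minus strand: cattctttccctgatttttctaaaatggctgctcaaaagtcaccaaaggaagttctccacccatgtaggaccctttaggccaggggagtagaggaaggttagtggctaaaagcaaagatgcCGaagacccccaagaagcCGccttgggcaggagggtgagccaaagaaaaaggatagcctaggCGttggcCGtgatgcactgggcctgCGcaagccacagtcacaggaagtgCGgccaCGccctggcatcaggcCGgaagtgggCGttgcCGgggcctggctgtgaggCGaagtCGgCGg
Ccdc7b, chr8:129066861-129067160, plus strand: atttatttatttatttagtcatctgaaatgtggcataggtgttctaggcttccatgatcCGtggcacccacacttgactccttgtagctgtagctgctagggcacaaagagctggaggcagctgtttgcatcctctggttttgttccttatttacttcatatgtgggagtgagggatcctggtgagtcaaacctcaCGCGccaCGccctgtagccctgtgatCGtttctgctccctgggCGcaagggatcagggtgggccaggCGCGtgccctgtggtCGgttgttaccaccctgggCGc
Zfp385a, chr15:103340037-103340336, minus strand: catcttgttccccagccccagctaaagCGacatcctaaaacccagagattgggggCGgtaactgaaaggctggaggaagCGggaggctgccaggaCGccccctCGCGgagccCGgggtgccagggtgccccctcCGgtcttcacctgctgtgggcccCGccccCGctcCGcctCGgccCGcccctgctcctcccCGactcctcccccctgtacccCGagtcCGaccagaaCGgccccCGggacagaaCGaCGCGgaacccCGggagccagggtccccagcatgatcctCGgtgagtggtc
Cbx5, chr15:103239803-103240102, minus strand: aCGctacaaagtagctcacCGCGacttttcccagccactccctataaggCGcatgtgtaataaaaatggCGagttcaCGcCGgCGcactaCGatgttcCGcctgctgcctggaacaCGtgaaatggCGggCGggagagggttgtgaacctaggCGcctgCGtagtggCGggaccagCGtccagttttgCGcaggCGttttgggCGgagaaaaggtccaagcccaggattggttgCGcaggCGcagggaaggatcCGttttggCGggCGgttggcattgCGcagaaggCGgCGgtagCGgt

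These promoters hold 14 CpGs (Ptchd3), 13 (Gtsf1), 10 (Ccdc7b), 23 (Zfp385a) and 29 (Cbx5). The first 3 were captured in the knockout library and hardly in the wildtype one. Over the Ptchd3 promoter 4 listed windows held 6, 6, 4 and 5 wildtype counts against 49, 62, 77 and 70 knockout counts. Ptchd3 encodes a patched-domain membrane protein of male germ cells. Over the Gtsf1 promoter the 4 windows held 9, 9, 7 and 4 wildtype counts and 93, 92, 81 and 49 knockout counts. Gtsf1 is a small zinc finger protein of the piRNA pathway that male fertility requires in the mouse. Over the Ccdc7b promoter, of a coiled-coil protein gene, the counts were 3, 6, 6 and 5 in the wildtype and 41, 50, 55 and 44 in the knockout library. In all 12 windows the libraries were far apart, but these genes had been taken from the higher gene ends farthest from 0. The wildtype RPKM of the authors stayed between 0.342 and 1.03 while the knockout RPKM ran from 4.16 to 9.44. The Zfp385a and Cbx5 promoters overlap no listed window, so the differences at those genes lie elsewhere, as described below.

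Mature microRNAs from the hairpins that differed between the libraries are shown with the seed, bases 2 to 8, in capitals, as RefSeq gives them for the same build.
mmu-miR-29b-3p: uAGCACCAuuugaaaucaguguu
mmu-miR-29c-3p: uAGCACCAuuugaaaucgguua
mmu-miR-196a-5p: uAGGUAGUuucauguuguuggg
mmu-miR-3084-3p: uUCUGCCAgucuccuucagac
The miR-29b and miR-29c strands share 1 seed and the other 2 have seeds of their own.

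Regions with 20 or more fragments in the libraries combined were tested, and were called higher (lower) where the ratio reached 2 (0.5 for lower) and its interval did not hold 1. Fragments are window counts divided by 4, since a read was counted in several neighbouring windows. A library with no whole fragment was set to a floor of 3 fragments, which makes the fold a lower bound. Of 14 hairpins in the distal stretches, read with 1 kb on each side, 8 reached 20 fragments. Of these 8, 1 was higher (12.5%, against 15.1% of all tested autosomal hairpins) and 3 were lower (37.5%, against 12.2%). These shares rest on very few hairpins, and 2 of the lower ones read the same windows.

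Mir29b-2 and Mir29c (chr1:195037040-195037120 and chr1:195037547-195037634) lie side by side, and their regions hold the same 5 listed windows. The wildtype counts of those windows were 22, 30, 36, 30 and 16, and the knockout count was 0 in each. In the knockout library these regions were thus at least 12.5-fold lower. The miR-29 family is known for targeting the messages of de novo DNA methyltransferases. At Mir196a-2 (chr15:102973350-102973434), a microRNA of the Hoxc cluster that targets Hox messages, 7 windows summed to 7 wildtype and 117 knockout counts, a log2 ratio of 3.89 (2.10 to 10.04). Most of these windows also lie within 1 kb of the end of Hoxc10 and are counted again for that gene below. At Mir3084-2 on chromosome 19, 4 windows held 16, 25, 29 and 27 wildtype counts against 4, 3, 5 and 4 in the knockout library, a log2 ratio of -2.77 (-4.74 to -1.21). The listed windows of Mir196a-2 and Mir3084-2 lie beside the hairpin, while those of Mir29c overlap it.

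Over all its windows, capture in the distal stretches was higher in the knockout library, and slightly more so than in the rest of the same chromosomes. The 13566 windows summed to 598725 wildtype and 851909 knockout counts, with medians of 40 and 49. The log2 ratio was 0.34 (0.33 to 0.35) in the distal windows and 0.27 (0.27 to 0.27) in the rest. In the distal windows 61.2% (60.4% to 62.0%) were higher in the knockout library, against 56.0% (56.0% to 56.1%) in the rest, and the distal share was above that of the rest on 14 of 19 chromosomes. At least 2-fold higher were 18.3% of distal windows, beside 17.1% of all autosomal listed windows, and at least 2-fold lower were 34.1%, beside 38.3%. Shares in both directions were therefore near those of the whole table.

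Listed windows were sparser in the distal stretches but richer in CpGs. There were 714 listed windows per Mb in the last 1 Mb and 1026 per Mb in the rest, and the last 1 Mb held fewer than the rest of its chromosome on 17 of 19. Density climbed inward to 1775 windows per Mb at 7 to 8 Mb from the last window. A distal window held 2.56 CpGs on average against 2.31, and 13.5% of distal windows had 5 or more CpGs against 8.81%. Since the direction of the difference followed CpG number over the whole table, distal windows were compared with windows of the same CpG number on the same chromosome.

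Of windows with 1 CpG, 40.7% of the distal ones and 37.4% of the rest were higher in the knockout library. The share was 51.6% against 48.8% at 2 CpGs, 72.4% against 70.8% at 3, and 92.8% against 91.6% at 4. From 5 CpGs upward it was between 98.7% and 100% in the distal windows, as in the rest. In log2 ratio the distal excess lay in windows of few CpGs: the difference of the log2 ratio from the rest was 0.065 (0.045 to 0.085) at 1 CpG, above 0 on 15 of 19 chromosomes, and 0.048 (0.028 to 0.068) at 2 CpGs, above 0 on 10 of 19. The difference at 3 CpGs was 0.016, at 4 it was 0.0082, at 5 to 6 it was -0.0011, and at 7 to 10 it was -0.031, and each of these intervals held 0. In windows of 11 or more CpGs, of which the distal stretches hold 52, it was -0.19 (-0.34 to -0.046). Those windows had a median of 42.5 wildtype and 101.5 knockout counts, against 12 and 76 in the rest, so the densest distal windows were already captured in the wildtype library.

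**Figure D1:**
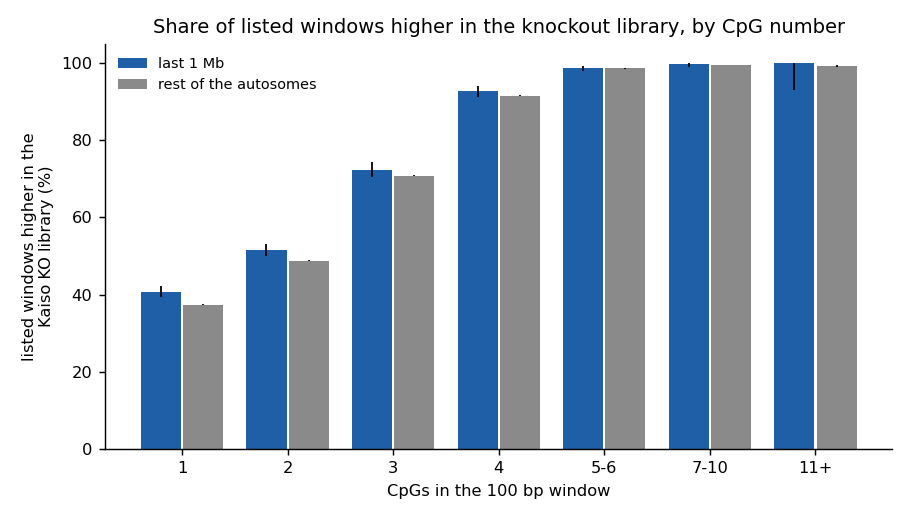
Share of listed windows higher in the Kaiso KO library (vertical axis, percent) by number of CpGs in the window (horizontal axis), for the last 1 Mb and the rest of the autosomes, with 95% intervals of counting error. The share climbs from 40.7% at 1 CpG to 100% at 11 or more in the distal windows, and the 2 bars of each class lie within a few percentage points of each other.

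Within CpG classes, the last 1 Mb exceeded the rest of the chromosome by 0.027 (0.017 to 0.037) on the log2 scale over all 19 chromosomes. The median over chromosomes was 0.048 and the SD over chromosomes 0.13, so the pooled difference is smaller than the spread between chromosomes. Of the 19 differences 12 were above 0, and the interval lay above 0 on 10, below 0 on 4 and held 0 on 5. Leaving out chromosome 15 brought the pooled difference to 0.013 and leaving out chromosome 7 to 0.048. Without CpG classes it was 0.072, above 0 on 15 of 19 chromosomes.

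Chromosome 15 had the highest difference, 0.31 (0.27 to 0.36), with 24920 wildtype and 44023 knockout counts in 893 windows. Above 0 with their whole interval were also chromosomes 1 (0.18), 12 (0.17), 9 (0.16), 10 (0.15), 6 (0.13), 18 (0.098), 19 (0.085), 5 (0.081) and 13 (0.048). Chromosomes 14 (0.030), 4 (0.0037), 3 (-0.0017), 17 (-0.0063) and 2 (-0.018) had intervals that held 0. Below 0 were chromosomes 16 (-0.061), 11 (-0.11), 8 (-0.12) and 7. Chromosome 7 was lowest at -0.29 (-0.33 to -0.25), and its distal stretch was the only one of the 19 with a log2 ratio below 0 (-0.019, -0.057 to 0.019), with 42070 wildtype and 46651 knockout counts in 972 windows.

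Most of these values lie among those of other 1 Mb blocks. When each chromosome was divided into 1 Mb blocks, 2412 in all, the SD of their differences was 0.16, and 5 distal stretches lay beyond 1 SD of the blocks of their own chromosome. The last 1 Mb of chromosome 15 ranked 1 of 101 blocks from the highest, while that of chromosome 7 ranked 135 of 143. The first 1 Mb of listed windows, next to the centromere, gave 0.078 (0.070 to 0.086), with 14 of 19 chromosomes above 0. The distal difference exceeded the centromere-proximal one on 8 of 19 chromosomes; the difference between the ends was not tested.

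**Figure D2:**
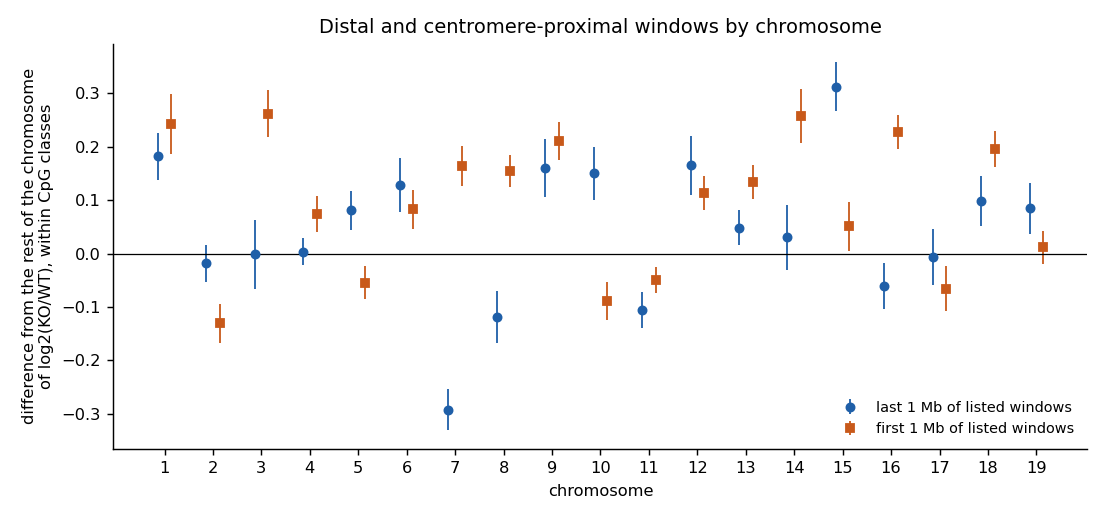
Difference of log2(KO/WT) from the rest of the same chromosome within CpG classes (vertical axis) by chromosome, for the last and the first 1 Mb of listed windows, with 95% intervals of counting error. Distal values run from -0.29 on chromosome 7 to 0.31 on chromosome 15, and the squares of the first 1 Mb run from -0.13 on chromosome 2 to 0.26 on chromosome 3.

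Along the last 1 Mb the difference lay mainly next to the last listed window. It was 0.20 (0.17 to 0.23) in the last 100 kb, above 0 on 16 of 19 chromosomes, and 0.16 (0.13 to 0.19) from 100 to 200 kb, above 0 on 13 of 19. From 200 kb inward the 100 kb steps ranged from -0.11 to 0.088. The last 200 kb, a stretch chosen after these values were seen, held 2991 windows with median counts of 51 wildtype and 85 knockout, and a difference of 0.18 (0.16 to 0.20). The remaining 800 kb held 10575 windows with medians of 37 and 38, and a difference of -0.025 (-0.037 to -0.014). The last 200 kb was also richer in CpGs (2.90 per window against 2.47), and within CpG and count classes together its difference was 0.12.

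The difference of the last 200 kb was above 0 on 14 of 19 chromosomes, with an SD over chromosomes of 0.23. It was highest on chromosome 9 at 0.76 (0.66 to 0.86), where 139 windows summed to 4325 wildtype and 10098 knockout counts, with medians of 23 and 73. Chromosomes 12 (0.44), 13 (0.32) and 10 (0.31) followed. It was lowest on chromosomes 7 (-0.22, -0.31 to -0.13) and 17 (-0.20, -0.31 to -0.090). Leaving out any 1 chromosome kept the pooled value between 0.15 and 0.19, so it does not rest on chromosome 9 alone. Further inward, the difference was -0.056 from 1 to 2 Mb and -0.0094 from 2 to 3 Mb, and it was 0.050, 0.096, 0.092, 0.11 and 0.083 in the next 5 Mb. Values near 0.1 thus also occurred 4 to 7 Mb away.

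**Figure D3:**
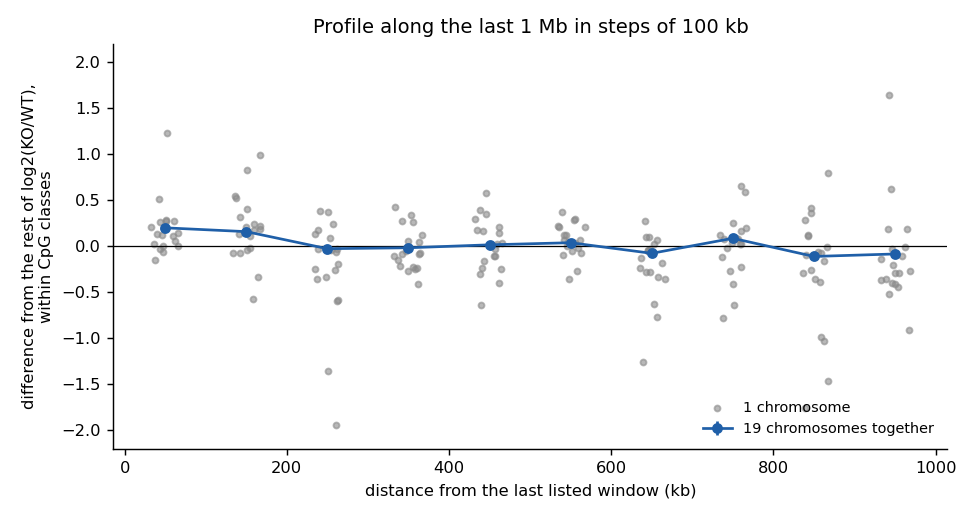
Difference of log2(KO/WT) from the rest within CpG classes (vertical axis) by distance from the last listed window in kb (horizontal axis), for the 19 chromosomes together (blue, 95% interval of counting error) and for each chromosome (grey). The blue line is at 0.20 and 0.16 in the first 2 steps and near 0 beyond, while single chromosomes scatter widely around it.

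In 1 kb bins, 3068 distal bins had at least 20 fragments. Of these 370 (12.1%) were higher in the knockout library, beside 10.9% of all autosomal bins, and 678 (22.1%) were lower, beside 25.3%. The split depends on the scaling, with 279 higher and 869 lower bins by autosomal counts, and 212 and 952 with CpG-rich windows at a median of 0. Among CpG-dense bins, whose listed windows average at least 3.5 CpGs, 114 of 653 distal bins (17.5%) were higher, against 13.2% in the rest, and 1 was lower. Among CpG-poor bins, whose listed windows hold 1 CpG each, 2 of 185 (1.08%) were higher, against 1.90% in the rest, and 36 (19.5%) lower, against 19.8%. With all chromosomes together, the distal excess of higher bins was thus in CpG-dense bins, unlike that of the log2 ratio by window. Chromosome 15 held 57 of the 370 higher bins, out of 169 tested there (33.7%, against 10.7% in its rest). The shares by CpG density were not computed without it, so the excess may not hold for distal stretches in general. Chromosome 7 had 88 of 249 bins lower (35.3%, against 24.7% in its rest). The share of higher bins was also above that of the rest by over 5 percentage points on chromosomes 6 (18.4% against 10.7%), 9 (15.8% against 9.56%), 10 (21.3% against 13.4%), 12 (18.9% against 9.97%) and 13 (18.7% against 11.3%). It was below that of the rest by over 5 points on chromosomes 2 (3.81% against 9.95%) and 7 (5.22% against 11.03%).

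Chromosome 15 differed most in the innermost 200 kb of its stretch, which holds the Hoxc cluster of homeobox genes, regulators of position along the body axis. From 800 kb to 1 Mb its 291 windows had a median of 3 wildtype and 23 knockout counts and a log2 ratio of 1.20 (1.07 to 1.32). The 188 distal windows between 102920131 and 103037856, over the Hoxc genes, summed to 1104 wildtype and 5043 knockout counts, a log2 ratio of 2.02. Without them the difference of chromosome 15 was 0.21. The last 200 kb of chromosome 15 had a log2 ratio of 0.69 (0.60 to 0.77), with medians of 52 and 91. On chromosome 7 none of the wide stretches was far from equal capture per library read. In steps of 100 kb, its difference from the rest within CpG classes ran from -0.63 (600 to 700 kb) to 0.059 (last 100 kb). The log2 ratio there was 0.020 in the last 200 kb, -0.13 from 200 to 800 kb and 0.13 from 800 kb to 1 Mb, and the 209, 519 and 244 windows of these stretches held 43.1%, 34.7% and 50% of windows higher in the knockout library.

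**Figure D4:**
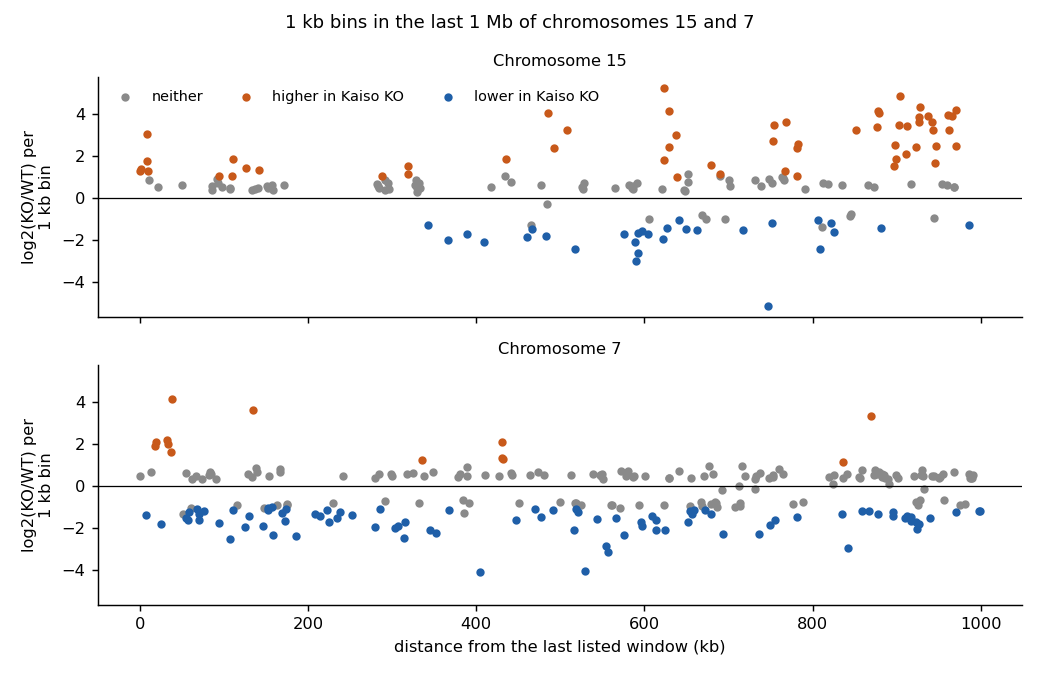
log2(KO/WT) of 1 kb bins with at least 20 fragments (vertical axis) by distance from the last listed window in kb (horizontal axis), on chromosomes 15 and 7. Of the 169 bins of chromosome 15, 57 are higher in the Kaiso KO library, many of them beyond 800 kb, while 88 of 249 bins of chromosome 7 are lower and are spread along the whole stretch.

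Of the 370 higher bins 183 had no called neighbour of the same direction, and of the 678 lower bins 561 had none. The longest run of adjacent higher bins spanned 5 kb on chromosome 6 (149361001 to 149366000), within the predicted gene Gm15784, with 525 wildtype and 2551 knockout counts in 36 windows and a log2 ratio of 2.11 (1.84 to 2.40). A run of 4 kb on chromosome 9 (124438001 to 124442000), 48.5 kb from the last listed window and over the predicted gene LOC108167320, held 202 and 1929 counts, a log2 ratio of 3.09 (2.68 to 3.55). A run of the same length on chromosome 1 (194467001 to 194471000), which overlaps no gene, held 283 and 1535 counts, a log2 ratio of 2.27 (1.91 to 2.67). The longest runs of lower bins were shorter. They spanned 3 kb each on chromosome 4 (155913001 to 155916000, 648 and 252 counts, log2 ratio -1.53), on chromosome 5 in Stard13 (151293001 to 151296000, 368 and 124 counts, -1.74) and on chromosome 7 in Tpcn2 (145270001 to 145273000, 343 and 155 counts, -1.31). Copies of predicted genes and repeats may share reads, and how such reads were counted is not stated.

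Of 273 protein-coding genes in the distal stretches, 159 had a listed window within 1 kb of either end and 132 had at least 20 fragments there. Among the 132 gene ends 35 were higher in the knockout library (26.5%, beside 21.4% of all autosomal gene ends), 22 were lower (16.7%, beside 13.6%) and 75 were neither. This split also depends on the scaling, with 29 higher and 30 lower by autosomal counts, 29 and 26 by TMM, 26 and 25 within CpG classes, and 21 and 33 with CpG-rich windows at a median of 0. The median log2 ratio was 0.51, beside 0.49 over all autosomal gene ends. Chromosome 15 held 9 of the 35 higher gene ends, out of 13 tested there. Without it 26 of 119 (21.8%) were higher and 20 (16.8%) lower, so the share of higher gene ends was then at the background. In the last 200 kb 9 of 19 tested gene ends were higher and 2 lower, and in the remaining 800 kb 26 of 113 were higher and 20 lower. The 200 kb bound was chosen from the same windows, so these gene ends are no separate support for it. Several of the 9 are also neighbouring genes.

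Wildtype counts of the 35 higher gene ends ran from 0 at Perm1 to 897 at Abhd16b, which had 2055 in the knockout library and a log2 ratio of 1.03. Zfp385a, a zinc finger protein gene on chromosome 15 (103313895 to 103340086), had 15 wildtype and 623 knockout counts in 11 windows, a log2 ratio of 5.21 (3.95 to 7.82). All 11 windows lie at its downstream end, away from the promoter shown above. Hoxc6 (15, 102998226 to 103011882) had 34 and 672 counts in 19 windows, 4.14 (3.21 to 5.46), and its whole span gave 4.03. The whole span of Zfp385a gave 0.65. At Gtsf1 (15, 103402458 to 103430445) the 7 windows around the start summed to 38 and 417 counts, a log2 ratio of 3.29 (2.38 to 4.53), and the whole span gave 0.53. At Ptchd3 (11, 121830218 to 121843438) the ends summed to 75 and 791 counts in 15 windows, 3.23 (2.59 to 4.07), of which 63 and 790 counts were at the start. The difference thus lay at the downstream end of Zfp385a and at the start of Gtsf1 and Ptchd3, while the strand of Hoxc6 was not known here.

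On chromosome 4 the difference also lay at either end. Ttll10, of a polyglycylase of tubulin and other proteins, had 13 and 356 counts at its downstream end, a log2 ratio of 4.61 (3.13 to 7.03), and its whole span gave 0.39. Mib2, an E3 ubiquitin ligase of Notch signalling, had 7 and 165 counts at its downstream end, 4.39 (2.63 to 10.5). That end overlaps the start of Mmp23, so the counts cannot be assigned to Mib2 alone. Mmp23 was also called higher, with 168 and 417 counts at its ends (1.14) and 24 and 282 over its whole span (3.39). Perm1, a regulator of muscle metabolism, had 0 wildtype and 104 knockout counts at the start of its span, at least 7.71-fold higher. Its RefSeq promoter lies 12665 bases from that start and overlaps no listed window. The whole span of Perm1, with 2988 and 4136 counts, gave 0.30. Ankrd65, an ankyrin repeat gene, had 53 and 372 counts at its start, a log2 ratio of 2.64. The differences at the ends of Ttll10, Mib2 and Perm1 were thus local and did not extend over the gene.

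Further higher gene ends lay at gene starts on other chromosomes. Ccdc7b on chromosome 8 had 27 and 281 counts, a log2 ratio of 3.21 (2.18 to 4.87) beside 0.38 over its whole span, and the neighbouring Ccdc7a had 33 and 222. Ppp2r3d on chromosome 9, of a regulatory subunit of protein phosphatase 2A, had 121 and 746 counts, 2.46 (1.90 to 3.07). Amn1 on chromosome 6 had 17 and 300 counts in 6 windows, 3.97 (2.64 to 5.97), but its whole span, with 49 wildtype and 18 knockout counts, gave -1.61, so its direction depends on the stretch read. On chromosome 2, the short gene Lkaaear1 had 81 and 699 counts over both ends, 2.94 (2.28 to 3.70).

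Lower gene ends held few CpGs. Among the 12 lower gene ends named here the mean was 1 to 2 CpGs per window, and among the 12 higher ones 2.17 to 4.60, in the same direction as over all listed windows, and the part of CpG number in these calls was not tested. Cbx5 (15, 103191546 to 103239904), of the heterochromatin protein HP1 alpha, had 139 wildtype and 8 knockout counts in 6 windows at its downstream end, a log2 ratio of -4.29 (-7.36 to -2.29), while its whole span gave 0.12. Ppp1r1a (15, 103530279 to 103538027), of an inhibitor of protein phosphatase 1, had 269 and 64 counts, -2.24 (-3.12 to -1.43). Depdc1a, the single tested gene of chromosome 3, had 125 and 32 counts at its downstream end, -2.13 (-3.45 to -0.97), and its whole span gave -2.29.

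Ptk6 on chromosome 2, of an epithelial tyrosine kinase, had 273 and 90 counts at its ends, a log2 ratio of -1.77 (-2.56 to -1.08), but its whole span gave 0.014. Wdr45b on chromosome 11, of an autophagy protein, had 176 and 80 counts, -1.31, and its whole span gave 0.29. Sinhcaf on chromosome 6, of a subunit of the Sin3 deacetylase complex, had 90 and 25 counts, -2.02. The others were Tnfrsf4, of a T cell costimulatory receptor (255 and 120 counts, -1.26), Itgb8, of an integrin chain (206 and 99, -1.23), and Tpcn2, of an endolysosomal cation channel (84 and 31, -1.61). Over the whole gene Itgb8 gave -0.23 and Tpcn2 -0.20, so the whole spans of Cbx5, Ptk6, Wdr45b, Itgb8 and Tpcn2 were not 2-fold lower. Single stretches inside a span can still be lower, as the run of lower bins in Tpcn2 named above.

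**Figure D5:**
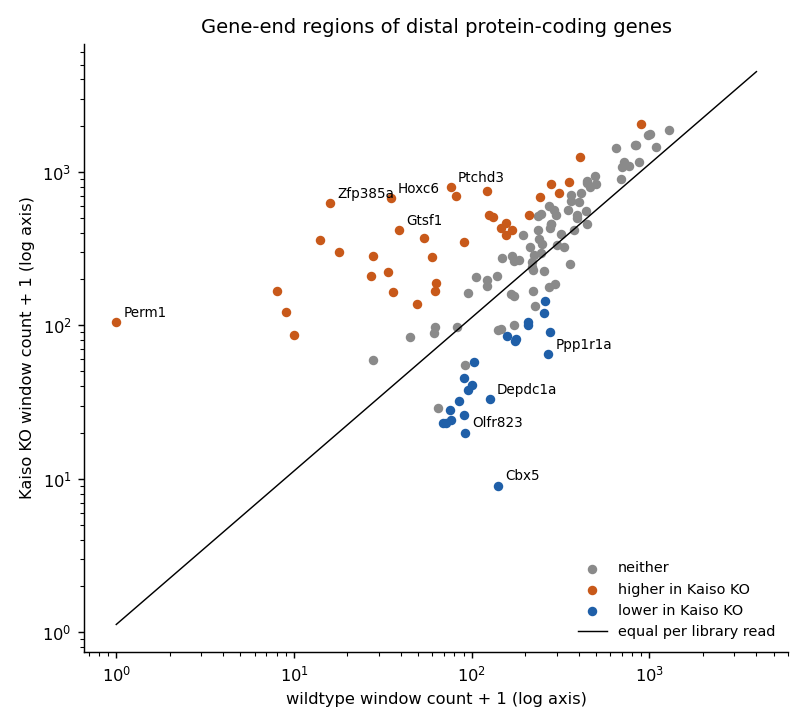
Knockout against wildtype window counts, each plus 1, on log axes, for the 132 tested gene-end regions of the distal stretches. The 35 higher regions lie above the line of equal counts per library read, with wildtype counts down to 0 at Perm1, and the 22 lower ones lie below it, with Cbx5 farthest away.

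Among the gene groups, olfactory receptors were the most numerous, with 31 genes, but only 5 had enough fragments. Of these 1 was higher (Olfr820, 59 and 279 counts, log2 ratio 2.07) and 3 were lower, namely Olfr823 (91 and 19, -2.43), Olfr824 (75 and 23, -1.87) and Olfr827 (174 and 78, -1.33). Over all autosomes 91 of 320 tested olfactory receptors were higher and 98 lower. These neighbouring copies on chromosome 10 may share reads.

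Developmental regulators had 7 tested members, of which 4 were higher and 1 lower (median 1.40 on the log2 scale), beside 58 higher and 15 lower of 138 over all autosomes (median 0.80). The higher ones were Hoxc6, Hoxc9 (89 and 346 counts, 1.79), Hoxc10 (155 and 461, 1.40) and Sox18, a regulator of lymphatic vessels (35 and 163, 2.05). Nrp1, a receptor for semaphorins and VEGF, was lower (71 and 22, -1.86). The 3 Hoxc genes lie in 1 cluster and are not independent of each other. Of 3 tested sperm and meiosis genes 1 was higher and none lower, beside 40 higher and 18 lower of 144 over all autosomes. Tex19.2 was the higher one (351 and 857 counts, 1.12), and its neighbour Tex19.1, needed for male meiosis, was neither (444 and 847, 0.76) but was called higher when its start alone was read (1.54). Also neither was Cfap74, of a flagellar protein (299 and 332, -0.017). Hoxc10 and Tex19.2 lost their calls with a scaling within CpG classes, at 0.93 and 0.76. Perm1 stayed above 2-fold under that scaling, at 2.72, but fell under 20 fragments and was no longer tested. Tex19.2 also lost its call by autosomal counts (0.85), by TMM (0.96) and with CpG-rich windows at a median of 0 (0.46), and Hoxc10 with the last of these (0.75).

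In the remaining groups 1 gene end was called apart from Zfp385a. That was Fgf4, of a growth factor of the early embryo (74 and 27 counts, -1.62). The 2 other tested zinc finger genes (Zbtb46 at 0.99 and Zfp750 at -0.0042), the 2 chemokine receptor genes (Ccr9 at 0.25 and Ccr1l1 at 0.50), Slc35e2 (0.62) and Col20a1 (-0.96) were neither higher nor lower. Under other scalings Col20a1 was called lower, by autosomal counts (-1.23), by TMM (-1.12), within CpG classes (-1.15) and with CpG-rich windows at a median of 0 (-1.62), and Zbtb46 was called higher by the authors' scaling (1.12). No keratin gene lies in the distal stretches.

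Promoters of distal genes were searched on both strands for 4 motifs. The Kaiso binding site TCCTGCNA was present in 16 of 210 distal promoters (7.62%), against 4.76% of 16457 autosomal promoters, and its core CTGCNA, which it contains, in 52.9% against 48.1%. The letters CGCG, which Kaiso binds when methylated, were present in 44.3% against 50.8%. The telomere repeat unit TTAGGG was present in 21 of 210, against 10.4%. Distal promoters had a median of 11 CpGs, against 14. Among the promoters printed above, TCCTGCNA was found in none, and CGCG in those of Ccdc7b, Zfp385a and Cbx5. Of the 6 promoters taken by rule, those of Depdc1a and Sinhcaf hold TCCTGCNA, and those of Zfp385a, Ttll10, Amn1 and Cbx5 do not. Depdc1a and Sinhcaf were lower at their downstream ends, and their promoters overlap no listed window. Among the other lower gene ends, the promoters of Tnfrsf4, Itgb8 and Tpcn2 also lack TCCTGCNA.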

How the data were processed

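Methylated testis DNA captured with MBD2 was read in 1 wildtype and 1 Kaiso KO library. Bowtie2 2.2.6, edgeR and mm10 are named in the submitters' processing notes. The deposited table holds, per the file headers, window counts, RPKM that the authors scaled to window length and library reads, a relative methylation score with no stated scale, the CpG number of each window, a log2 fold change coded as wildtype over knockout, and a p-value. No listed window has a deposited p-value of 0.05 or above, and none a summed count under 10. Library reads were recovered from the counts and the RPKM of the authors. Another 10 columns of values per sample or group were not used here.

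Distal windows were compared with the rest of the same chromosome within 7 classes of CpG number, by the log2 ratio of summed counts, weighted by distal counts. Its interval is a normal one over fragments. A scaling common to all windows cancels in that difference. Intervals of ratios and shares are Clopper-Pearson. Window counts were divided by 4 to approximate fragments, as no source states how far reads were extended. Genes and promoters came from RefSeq tables of GRCm38.p6, and gene-end regions take 1 kb on each side of both ends. Strand was known only for genes with a promoter entry.

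Named genes were the 12 higher and 12 lower gene ends with the interval bound farthest from 0 (predicted and Riken symbols left out), up to 3 members per gene group by fragments, and in each direction the 3 longest runs of bins. A gene that the rule takes is not reported here. Of the 6 promoters taken by rule 2 are printed. The members, lists and rules were chosen with earlier results of these data known. Other scalings (TMM from edgeR 4.0.16), widths, classes, minimums and folds were tried. The scripts (Python 3.11.15, pandas 2.3.3, scipy 1.17.1, R 4.3.3) were tested on simulated data.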

Additional observations from a re-analysis of the deposited data

How the results depend on the processing

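The pooled difference of the last 1 Mb kept its sign under every alternative except the last 2 Mb, where it was -0.020. It was 0.084 for the last 500 kb, 0.060 with class weights from the rest, 0.17 by the median of windows, 0.017 with CpG and count classes together and 0.072 without classes, and from 0.013 to 0.048 with 1 chromosome left out. The difference of the last 200 kb, with alternatives chosen after seeing the data, was 0.20 for the last 100 kb, 0.13 for the last 300 kb, 0.21 with weights from the rest, 0.45 by the median of windows, 0.12 with count classes, 0.27 without classes and 0.15 in windows whose counts sum to 40 or more, and from 0.15 to 0.19 with 1 chromosome left out. Chromosome 15 gave 0.21 without the Hoxc cluster and 0.23 in windows whose counts sum to 40 or more, and chromosome 7 gave -0.23 with count classes. The log2 ratio of the distal windows depended on the scaling. It was 0.069 by autosomal counts, 0.47 by the authors' scaling, 0.18 by TMM, 0.028 within CpG classes and -0.32 when the median of CpG-rich windows (5 CpGs and up) was set to 0, which lowers every ratio by 0.66, and it was 0.42 in the last 500 kb and 0.27 in the last 2 Mb. The share of distal windows higher in the knockout library was 75.5% among windows with a summed count of at least 40, against 69.4% in the rest. Higher bins numbered 212 with CpG-rich windows set to 0, 858 at 1.5-fold and 177 at 4-fold. Lower bins numbered 284 at a minimum of 40 fragments and 174 at 4-fold. Higher gene ends numbered 21 with CpG-rich windows set to 0. Lower gene ends numbered 10 for gene starts alone (26 higher), 9 at a minimum of 40 fragments and 13 with a divisor of 6. With 29 higher and 30 lower gene ends by autosomal counts, and 26 and 25 within CpG classes, the balance of higher and lower is not fixed by these data. Amn1 gave -0.053 with 500 bp on each side and -1.61 over the whole gene, and whole genes gave 0.12 for Cbx5, 0.014 for Ptk6 and 0.29 for Wdr45b. The causes were not tested. At this depth a region without a read still allows up to 3 fragments. No paired analysis was possible because each genotype has 1 library.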

Other observations

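On the sex chromosomes, which are outside the 19 autosomes, the last 1 Mb of listed windows was lower in the knockout library. On X 562 windows summed to 75799 wildtype and 57647 knockout counts, a log2 ratio of -0.56 (-0.59 to -0.53), beside 0.48 in the rest of X. On Y 865 windows summed to 122292 and 92503 counts, a log2 ratio of -0.57 (-0.60 to -0.55), beside 0.77 in the rest of Y. No autosomal distal stretch was as low, the lowest being chromosome 7 at -0.019. Whether the ends of X and Y share reads was not tested, so their values are not taken as separate observations.

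Windows without any wildtype count made up 1.78% of the distal windows (241) and 1.21% of the rest. Of these 241 windows 79 lay on chromosome 15, among its 893 distal windows, so much of the excess belongs to that chromosome. Windows without any knockout count made up 1.58% of the distal windows (215) and 1.47% of the rest.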
